A study of Mus musculus with 35 samples.

Results

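The branched-chain amino acids leucine, isoleucine and valine are broken down in mitochondria, and this account follows 10 genes of that route in 2 mouse fat depots. The genes were picked by name from the route's known enzymes (Bcat1, Bcat2, Bckdha, Bckdhb, Dbt, Ivd, Mccc1, Mccc2, Pcca and Pccb), and Ensembl identifiers were paired with mouse symbols. All 10 were found among the 18947 genes of the mRNA comparison. Messenger RNA came from whole interscapular brown adipose tissue (iBAT, 4 libraries) and whole epididymal white adipose tissue (eWAT, 4 libraries). The donors were male C57BL/6J mice of 15 weeks (strain C57BL/6 in the sample labels), untreated and without any transgene named in the labels. The study's 35 samples also include 9 Argonaute crosslinking samples and 18 microRNA libraries, which were not analysed here. The mRNA values are the authors' own comparison of the depots, and no value per library was used here, so spread between libraries enters only through the deposited standard errors. The labels do not say whether the 4 libraries of a depot are 4 animals, so the p-values may measure only technical spread.

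Breakdown of these amino acids starts with a transaminase that removes the amino group, BCAT1 in the cytosol or BCAT2 in mitochondria. The branched-chain keto acid dehydrogenase complex (BCKDH) then commits the carbon skeleton to oxidation, through a decarboxylase of BCKDHA and BCKDHB subunits, the acyltransferase DBT and the shared dehydrogenase DLD. Leucine continues through isovaleryl-CoA dehydrogenase (IVD) and the biotin-dependent methylcrotonyl-CoA carboxylase of MCCC1 and MCCC2. Carbon of isoleucine and valine reaches the citric acid cycle through the biotin-dependent propionyl-CoA carboxylase of PCCA and PCCB. White adipocytes are known to use the route when they mature, and brown adipocytes are known to oxidise these amino acids during heat production.

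From the dehydrogenase complex onward, all 8 members were higher in iBAT than in eWAT. They rose between 1.83-fold (Ivd) and 4.80-fold (Bckdhb), with a median log2 fold change of 1.47 per the authors' deposited table. The transaminase step differed. Bcat2 was not called, and Bcat1 was 3.82-fold lower in iBAT per the authors' deposited table. A gene is called here when its adjusted p in that table is under 0.05. The table's header names no direction, so it was read from depot markers. Ucp1 (15.87 ± 0.90) and Cidea (9.58 ± 0.13), of brown fat, were positive per the authors' deposited table. Lep (-2.77 ± 0.84), of white fat, and Wt1 (-6.80 ± 0.43), of the mesothelium of visceral fat, were negative per the authors' deposited table. By the rule for calls, 20.9% of all genes were called higher in iBAT and 27.1% lower, against 8 and 1 of the 10 members. Most members are abundant transcripts, so the same shares among genes with a base mean of at least 500 are also given, which were 33.8% higher and 23.8% lower. Base mean is the average normalized count over all samples of the table. The median log2 fold change was 1.18 over the 10 members and -0.10 over all genes per the authors' deposited table. Markers of skeletal muscle and of brown adipocytes rose with the 8 genes (values further on). Markers of white adipocytes, macrophages, fibroblasts, mesothelium and epididymis, and most of those of endothelium, fell with Bcat1. Their part in these differences was not tested. In whole tissue, fewer cells of a type and less RNA per cell cannot be told apart.

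**Figure D1:**
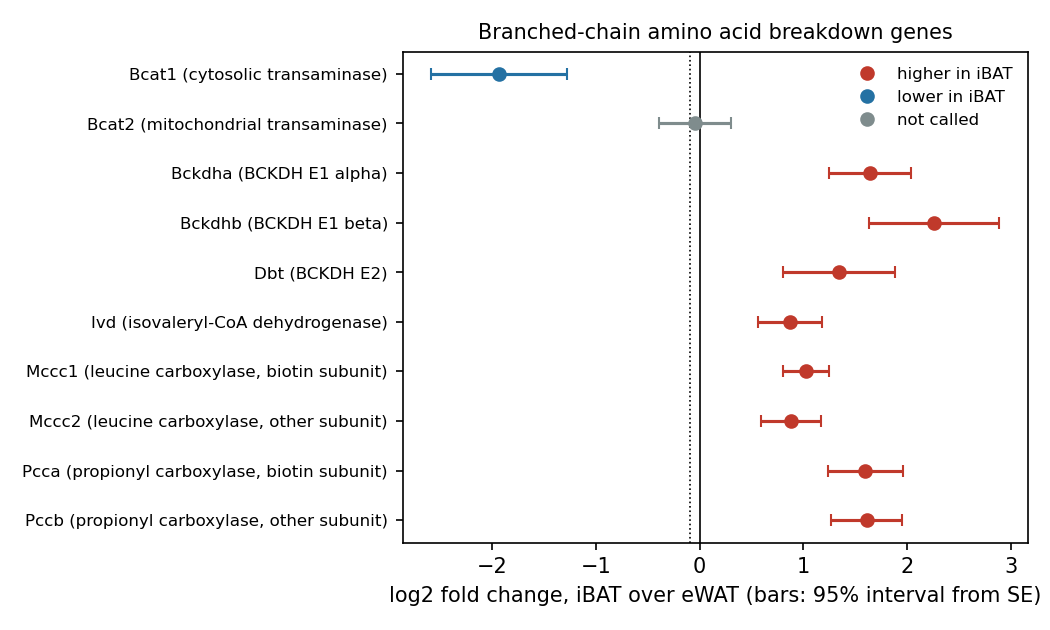
Log2 fold change of iBAT over eWAT (horizontal axis) for the 10 breakdown genes in order of their step, with points for the deposited estimate and bars for the 95% interval from its standard error; the solid line is 0 and the dotted line the median of all genes (-0.10). The 8 genes from Bckdha to Pccb lie wholly to the right of both lines, Bcat2 spans them and Bcat1 lies to the left.

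The 2 transaminase genes were the exceptions. Bcat1 (ENSMUSG00000030268, chr6:144993835-145076157, all coordinates from RefSeq on GRCm38.p6) encodes the cytosolic enzyme. Its log2 fold change was -1.93 ± 0.34 (SE) at a base mean of 134, and the adjusted p was 1.06e-08 per the authors' deposited table. That is 3.82-fold lower in iBAT, with a 95% interval of 2.43 to 6.03. It also had the smallest base mean of the members, at the 39.4th percentile of all genes. Bcat2 (ENSMUSG00000030826, chr7:45568967-45589710) encodes the mitochondrial enzyme. Its log2 fold change was -0.05 ± 0.18 at a base mean of 4495, and the adjusted p was 0.847 per the authors' deposited table. The interval of the iBAT to eWAT ratio of Bcat2 ran from 0.760 to 1.23, which does not include the 1.83-fold rise of Ivd, the smallest among the oxidative members.

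Each of the 3 members that encode the dehydrogenase complex was higher in iBAT. Bckdha (ENSMUSG00000060376, chr7:25629852-25658782), the alpha subunit of the decarboxylase, stood at 1.64 ± 0.20 with an adjusted p of 2.9e-15 and a base mean of 14422 per the authors' deposited table. Bckdhb (ENSMUSG00000032263, chr9:83925111-84124240), the beta subunit, had the highest value of the 10 members, 2.26 ± 0.32, with an adjusted p of 2.45e-12 per the authors' deposited table. Its base mean was 544, and its SE was the second widest of the group after that of Bcat1. Dbt (ENSMUSG00000000340, chr3:116513070-116549981), the acyltransferase core, was at 1.34 ± 0.27 with an adjusted p of 2.02e-06 and a base mean of 7898 per the authors' deposited table. As linear ratios these are 3.12 (95% interval 2.37 to 4.12), 4.80 (3.11 to 7.40) and 2.53 (1.74 to 3.68). The intervals of the 3 subunits overlapped, and a test of the difference between genes was not possible without values per library.

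The 3 genes of the leucine branch had the smallest estimates among the oxidative members, but they were only partly separate from the rest. The interval of Dbt overlapped with all 3, and those of Bckdha and Pcca overlapped with that of Mccc1. The intervals of Ivd and Mccc2 lay wholly below those of Bckdha, Bckdhb, Pcca and Pccb. That of Mccc1 lay wholly below those of Bckdhb and Pccb. Ivd (ENSMUSG00000027332, chr2:118861959-118882909), which oxidises isovaleryl-CoA, was at 0.87 ± 0.16 with an adjusted p of 1.47e-07 and a base mean of 13542 per the authors' deposited table. Mccc1 (ENSMUSG00000027709, chr3:35956292-36000694), the biotin-carrying subunit of methylcrotonyl-CoA carboxylase, was at 1.03 ± 0.11 with an adjusted p of 5.07e-19. Its partner Mccc2 (ENSMUSG00000021646, chr13:99948532-100015639) was at 0.88 ± 0.15 with an adjusted p of 1.32e-08, both from the authors' deposited table. All 3 genes were about 1.83 to 2.04-fold higher, and their intervals overlapped.

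The propionyl-CoA carboxylase subunits had nearly equal fold changes. Pcca (ENSMUSG00000041650, chr14:122484365-122889944), the biotin-carrying subunit, was at 1.60 ± 0.18 with an adjusted p of 1.23e-17 per the authors' deposited table. Pccb (ENSMUSG00000032527, chr9:100982032-101034940), the carboxyltransferase subunit, was at 1.61 ± 0.17 with an adjusted p of 1.15e-19 per the authors' deposited table. The 2 estimates lay 0.01 apart on the log2 scale. Those of Mccc1 and Mccc2 lay 0.15 apart, and those of Bckdha and Bckdhb 0.62 apart.

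Ordered by fold change, the members ran Bckdhb, Bckdha, Pccb, Pcca, Dbt, Mccc1, Mccc2, Ivd, Bcat2 and Bcat1. Neighbours in that order had overlapping 95% intervals down to Ivd. The intervals of Ivd and Bcat2 did not overlap, nor did those of Bcat2 and Bcat1. Among all genes, the 8 oxidative members lay between the 85.9th (Ivd, Mccc2) and the 96.7th percentile (Bckdhb) of log2 fold change per the authors' deposited table. Bcat2 lay at the 52.1st and Bcat1 at the 11th percentile.

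**Figure D2:**
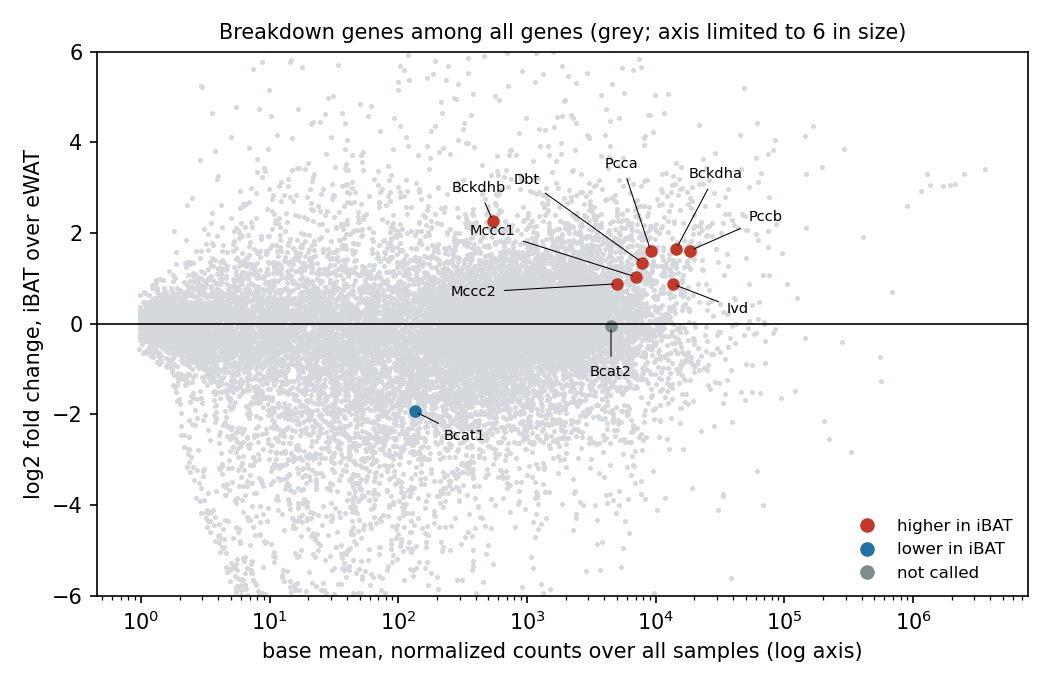
Log2 fold change of iBAT over eWAT (vertical axis) against base mean in normalized counts (horizontal log axis) for every gene of the comparison in grey, with the 10 breakdown genes in colour; 1 point is 1 gene and the 519 genes beyond 6 in size are outside the axis. Mitochondrial members other than Bckdhb sit at base means from 4495 (Bcat2) to 18516 (Pccb), while Bcat1 at 134 sits lower and below 0.

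Carriers that bring the amino acids into the cell and into mitochondria moved in opposite directions. Of 8 carriers and partners, 3 were called higher and 5 lower, with a median log2 fold change of -1.09 per the authors' deposited table. Over all genes, 20.9% were called higher and 27.1% lower, and 33.8% and 23.8% of those with a base mean of at least 500. Slc7a5, known as a main exchanger of large neutral amino acids at the plasma membrane, was 10.6-fold lower in iBAT (-3.41 ± 0.35, adjusted p = 1.21e-22) per the authors' deposited table. Its base mean of 162 was the lowest of the 8. Its heavy chain partner Slc3a2 was at -1.42 ± 0.17 (adjusted p = 1.32e-15) per the authors' deposited table. The related plasma membrane carriers Slc7a8 (-0.82 ± 0.23, adjusted p = 0.000815) and Slc43a1 (-1.50 ± 0.25, adjusted p = 2.9e-09) were also lower per the authors' deposited table. Slc43a3, a family member known mainly as a nucleobase carrier, was at -1.37 ± 0.13 (adjusted p = 1.34e-24) per the authors' deposited table. In the other direction, the exchanger gene Slc7a6 (1.25 ± 0.18, adjusted p = 4.14e-12) and the carrier gene Slc43a2 (1.06 ± 0.16, adjusted p = 2.34e-10) were higher in iBAT per the authors' deposited table. Slc25a44, the carrier of these amino acids across the inner mitochondrial membrane, was 2.69-fold higher (1.43 ± 0.15, adjusted p = 1.24e-19) per the authors' deposited table.

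The kinase and the phosphatase of the dehydrogenase complex were both higher in iBAT. Bckdk, whose kinase switches the complex off by phosphorylating BCKDHA, stood at 1.48 ± 0.13 (adjusted p = 1.79e-28) per the authors' deposited table. Ppm1k, whose phosphatase switches it back on, was at 1.76 ± 0.26 (adjusted p = 2.6e-11) per the authors' deposited table. Their 95% intervals on the log2 scale, 1.22 to 1.73 and 1.25 to 2.27, overlapped with each other and with that of Bckdha. Dld, the dehydrogenase subunit shared with the pyruvate and oxoglutarate complexes, was at 2.63 ± 0.14 (adjusted p = 1.03e-73) per the authors' deposited table, above the estimates of all 3 members of the complex. Klf15, a transcription factor known to act on the route, was not called (0.26 ± 0.74, adjusted p = 0.71) per the authors' deposited table, with an interval from -1.18 to 1.71.

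Later enzymes of the route moved with the oxidative members. Of 12 such genes counted outside the member list, 11 were called higher and 1 lower, with a median log2 fold change of 1.29 per the authors' deposited table. Over all genes, 20.9% were called higher and 27.1% lower, and 33.8% and 23.8% of those with a base mean of at least 500. On the valine branch these were Acad8, an acyl-CoA dehydrogenase (1.25 ± 0.12), the hydrolase gene Hibch (1.32 ± 0.26), the dehydrogenase gene Hibadh (1.38 ± 0.18) and Aldh6a1 (1.07 ± 0.29) per the authors' deposited table. On the isoleucine branch, Acadsb (0.68 ± 0.22), Hsd17b10 (0.89 ± 0.21) and the thiolase gene Acat1 (1.94 ± 0.18) were higher per the authors' deposited table. Echs1, a hydratase shared with fatty acid oxidation, was at 2.16 ± 0.13 per the authors' deposited table. Downstream of propionyl-CoA carboxylase, the epimerase gene Mcee (1.86 ± 0.26) and the mutase gene Mmut, listed under its older symbol Mut (1.55 ± 0.24), were higher by amounts close to those of Pcca and Pccb per the authors' deposited table. On the leucine branch, the hydratase gene Auh was higher (1.23 ± 0.18, adjusted p = 5.3e-11) per the authors' deposited table. The gene lower in iBAT was Abat, a mitochondrial transaminase best known for breaking down GABA, at -3.84 ± 0.21 (adjusted p = 5.74e-72) per the authors' deposited table. Like Bcat1, Abat encodes a transaminase.

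**Figure D3:**
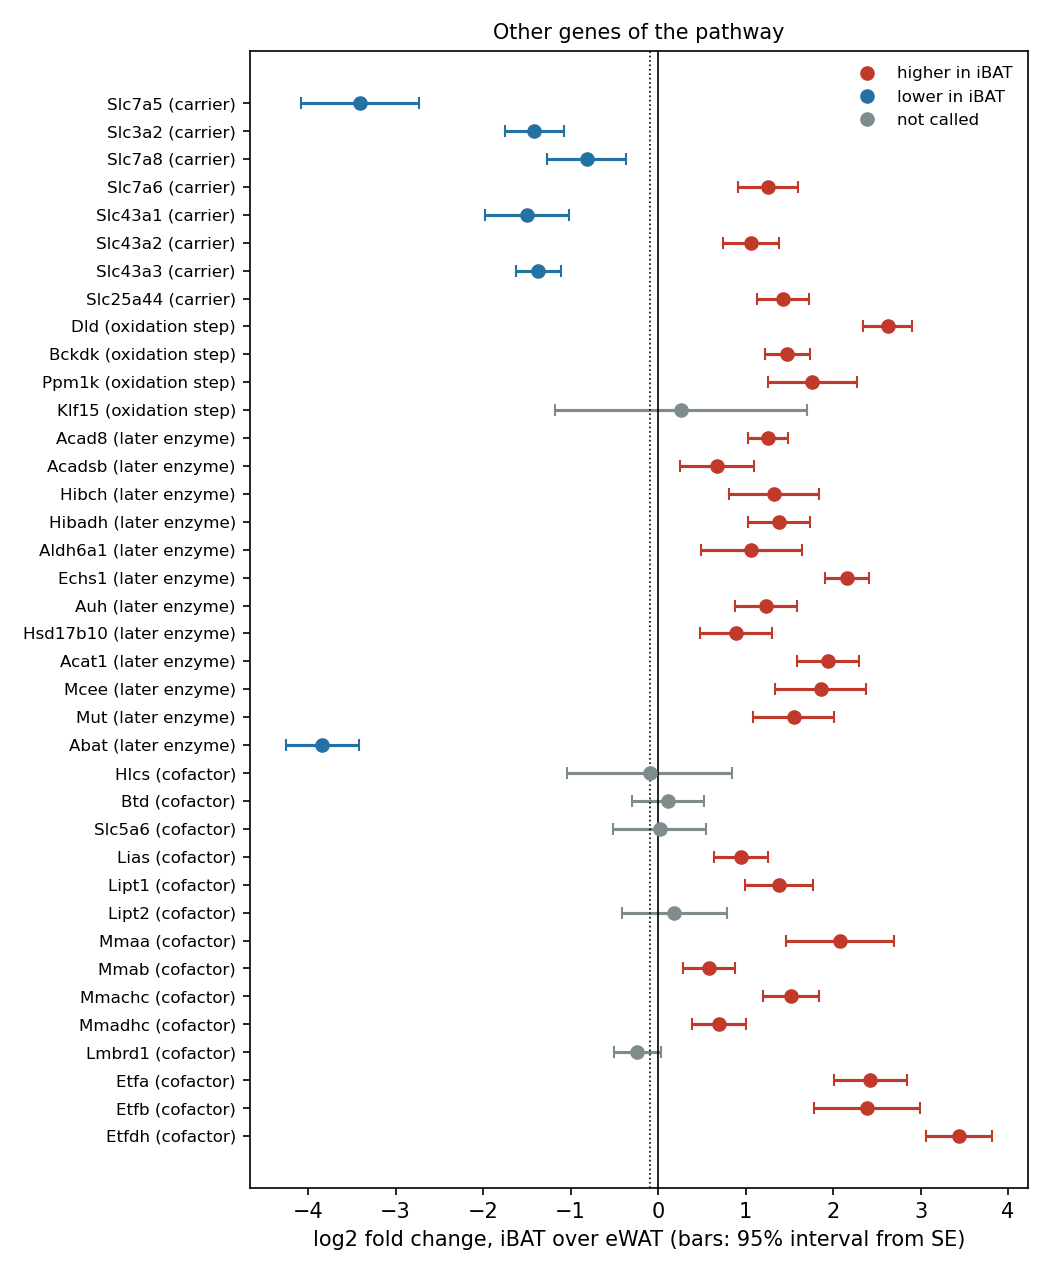
Log2 fold change of iBAT over eWAT (horizontal axis) for 38 other genes of the route, grouped as carriers, control of the oxidation step, later enzymes and cofactor genes, with bars for the 95% interval from the standard error; the solid line is 0 and the dotted line the median of all genes. Carriers fall on both sides, whereas 11 of 12 later enzymes were called higher and Abat lies far to the left.

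Genes for the cofactors of these enzymes were higher in iBAT or not called. Of 14 genes, 9 were called higher and 5 not called per the authors' deposited table. Nothing among the 3 biotin genes was called: Hlcs, which attaches biotin to MCCC1 and PCCA (-0.10 ± 0.48, adjusted p = 0.869), Btd, which recycles biotin (0.11 ± 0.21, adjusted p = 0.679), and the vitamin carrier Slc5a6 (0.02 ± 0.27, adjusted p = 0.965) per the authors' deposited table. For lipoate, which DBT carries, Lias (0.95 ± 0.16) and Lipt1 (1.38 ± 0.20) were higher and Lipt2 was not called (0.19 ± 0.31, adjusted p = 0.631) per the authors' deposited table. For cobalamin, which the mutase needs, Mmaa (2.08 ± 0.31), Mmab (0.58 ± 0.15), Mmachc (1.52 ± 0.16) and Mmadhc (0.70 ± 0.16) were higher per the authors' deposited table. Lmbrd1, the lysosomal cobalamin exporter, was not called (-0.24 ± 0.14, adjusted p = 0.128) per the authors' deposited table. The electron transfer genes that serve IVD and its relatives, Etfa (2.43 ± 0.21), Etfb (2.39 ± 0.31) and Etfdh (3.44 ± 0.19), were the highest of this list per the authors' deposited table. They also serve fatty acid oxidation. Taking carriers, control genes, later enzymes and cofactor genes as 1 set, 26 of 38 were called higher and 6 lower. The shares over all genes were 20.9% and 27.1%.

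The oxidative members rose together with other mitochondrial enzymes, whose log2 fold changes were mostly larger. In the tricarboxylic acid cycle list 17 of 17 genes were called higher with a median of 2.88, and in the fatty acid oxidation list 18 of 19 with a median of 2.43, per the authors' deposited table. The share called higher was 20.9% over all genes and 33.8% among those with a base mean of at least 500. Of the 36 genes in the 2 lists, 27 had a higher log2 fold change than Bckdhb, the top member, and 34 a higher one than Dbt, Mccc1, Mccc2 or Ivd. Set against the median of the 36 genes, the median log2 fold change of the 10 members was -1.65. Echs1 and the electron transfer genes stand in the fatty acid oxidation list as well as in lists of the route. Whether the lists differ was not tested, because values per library would be needed.

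Subunits of the sister complexes were mostly higher in iBAT, 6 of 8 genes by the deposited adjusted p. Over all genes 20.9% were called higher, and 33.8% of those with a base mean of at least 500. Ogdh and Dlst also stand in the tricarboxylic acid cycle list above. Pyruvate dehydrogenase genes Pdha1 (3.00 ± 0.17), Pdhb (2.55 ± 0.24) and Dlat (3.45 ± 0.28) and oxoglutarate dehydrogenase genes Ogdh (3.75 ± 0.15) and Dlst (3.77 ± 0.35) all had higher estimates than Bckdha, Bckdhb and Dbt per the authors' deposited table. Pdhx, which tethers DLD to the pyruvate complex, was at 2.25 ± 0.20, level with Bckdhb, per the authors' deposited table. Ogdhl, a scarce relative of Ogdh with a base mean of 3.32, was not called (0.47 ± 1.18, adjusted p = 0.0899), per the authors' deposited table. Dhtkd1, of the lysine route, was lower in iBAT (-0.51 ± 0.21, adjusted p = 0.0287) per the authors' deposited table. Among acyl-CoA dehydrogenases outside the route, relatives of IVD, 9 of 9 were called higher with a median of 1.89 per the authors' deposited table. Acads, Acadm, Acadl and Acadvl of these were already counted in the fatty acid oxidation list. They ranged from Acad9 (0.92 ± 0.14) to Acadl (3.84 ± 0.16), all above the 0.87 of Ivd. The list of 9 leaves out the route's own relatives of IVD given above. By estimate, Acad8 (1.25 ± 0.12) of these lay above Ivd and Acadsb (0.68 ± 0.22) below it, per the authors' deposited table. Of the other biotin carboxylases, the lipogenic enzymes Acaca (2.37 ± 0.49) and Acacb (3.17 ± 0.31) were higher, and pyruvate carboxylase, Pcx, was not called (0.00 ± 0.33, adjusted p = 0.998) per the authors' deposited table.

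**Figure D4:**
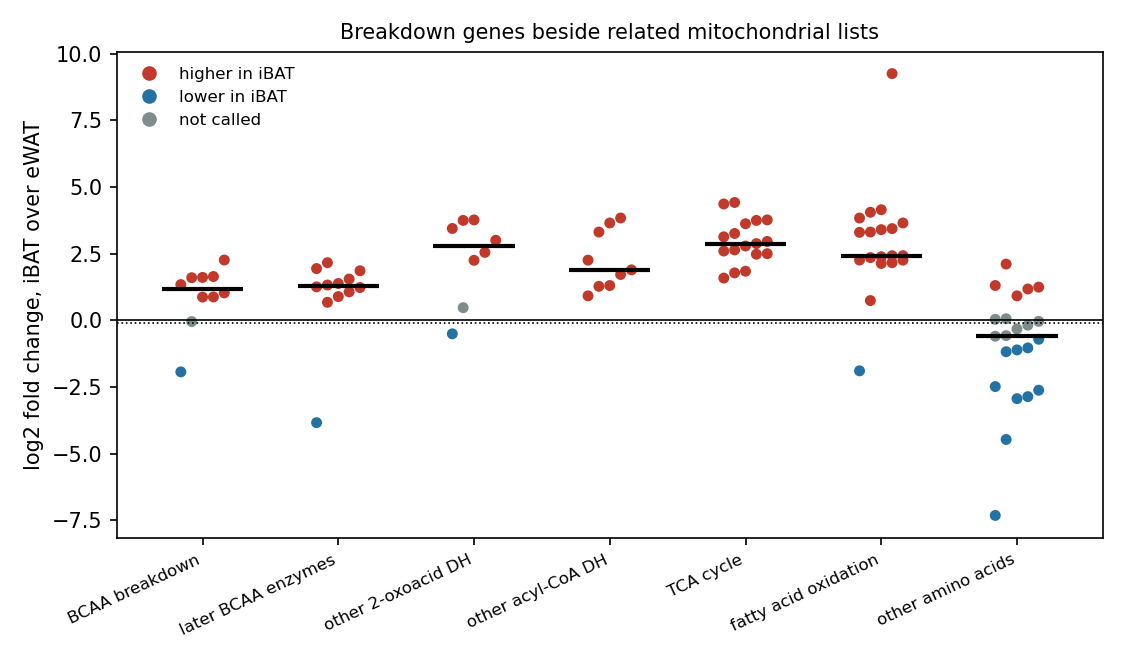
Log2 fold change of iBAT over eWAT (vertical axis) for each gene of 7 lists, the first being the 10 breakdown genes of branched-chain amino acids (BCAA); DH stands for dehydrogenase and TCA for tricarboxylic acid, points are genes coloured by their call, black bars are list medians and the dotted line is the median of all genes. The breakdown genes have a median of 1.18, against 2.88 for the TCA cycle and 2.43 for fatty acid oxidation.

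Markers of other cells moved with the depots too. All 10 brown adipocyte markers were higher in iBAT (median 7.67) and all 8 white adipocyte markers lower (median -3.86) per the authors' deposited table. Since the direction of the fold change was itself read from such markers, this checks only that the lists separate, not the labels. The same holds for the mesothelial list below, which includes Wt1. Skeletal muscle markers were higher in iBAT in 12 of 12 cases, with a median of 8.40 and base means from 92.4 to 23671 per the authors' deposited table. Muscle also oxidises branched-chain amino acids, and its part in the rise of the 8 members was not tested. Macrophage markers were lower in 8 of 8 cases (median -1.89), mesothelial markers in 5 of 5 (median -8.47), epididymal markers in 6 of 6 (median -15.94), fibroblast markers in 5 of 5 (median -0.96) and endothelial markers in 3 of 4 (median -0.96) per the authors' deposited table. These lists moved the same way as Bcat1, Slc7a5 and Abat, and their part in those values was not tested.

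RefSeq promoter windows, from 250 bases before to 50 after a transcript start, were found for 9 of the 10 members (Dbt had no entry). CCAAT, the box bound by the factor NF-Y, was searched on both strands because members that move together invite the comparison. It occurred in 6 of the 9 windows at the outermost start that had a window, against 37.4% of all 32851 windows. That share counts every start with a window, and over all such starts of the members the box was in 8 of 13 windows. The outermost window of Bcat2 lies inside the gene's annotated range, so its outermost annotated start was not searched. The leucine branch held the most boxes, 4 in Ivd, 3 in Mccc1 and 3 in Mccc2 (2 of which overlap), and 3.37% of all windows held at least 3. The cut of 3 was not planned and equals the counts of these genes, so that share is no test of the branch. Bckdhb had 2, Pcca 1 and Bcat1, the gene that was lower, also 1. None was found in the windows of Bckdha, Bcat2 and Pccb. So the boxes did not separate the members by direction, and a match is only a description of letters. The stretches below lie upstream of the gene's annotated range and are shown for the leucine branch, 5′ to 3′ on the gene's strand, with CCAAT or its reverse complement ATTGG in capitals. They are chr2:118861854-118861958 (plus strand), chr3:36000695-36000798 (minus strand) and chr13:100015640-100015719 (minus strand) of GRCm38.p6. The last Ivd box and the last Mccc1 box lie within the annotated gene and are not shown.
Ivd: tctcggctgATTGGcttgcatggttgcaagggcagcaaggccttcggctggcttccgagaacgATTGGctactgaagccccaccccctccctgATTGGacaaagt
Mccc1: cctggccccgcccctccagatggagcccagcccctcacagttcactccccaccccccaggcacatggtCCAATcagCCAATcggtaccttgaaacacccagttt
Mccc2: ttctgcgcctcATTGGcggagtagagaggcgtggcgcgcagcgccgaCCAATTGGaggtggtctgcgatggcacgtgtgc

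Other motifs occurred in few of these windows. The GC box GGGCGG was found in 2 of the 9 outermost windows, Bckdhb and Mccc1, in 3 of the members' 13 windows and in 35.7% of all windows. The core GCATGCG of the NRF1 site was found in Pccb alone, once on each strand at 34 and 33 bases upstream, where both matches overlap, and in 3.58% of all windows. The estrogen-related receptor motif TNAAGGTCA (1.28% of all windows), the direct repeat core AGGTCAAAG (0.426%), the cAMP response element TGACGTCA (1.79%) and the ETS motif CCGGAAG (8.86%) were in none of the 13 windows of the members. No match says only that these letters are absent from the window.

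Bckdha starts head to head with Exosc5, a subunit gene of the RNA exosome, 371 bases away on chromosome 7. The promoter windows of the pair share 109 bases, shown here on the plus strand because genes with different calls begin on either side (chr7:25658903-25659011, GRCm38.p6).
Shared stretch: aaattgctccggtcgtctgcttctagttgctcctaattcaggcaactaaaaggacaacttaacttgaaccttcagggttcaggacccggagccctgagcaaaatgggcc
Exosc5 (ENSMUSG00000061286) was not called at -0.05 ± 0.31 (adjusted p = 0.911, base mean 720.2), while Bckdha was 3.12-fold higher in iBAT, per the authors' deposited table. The other coding neighbours with a value were not called either: Ggact, 916 bases from Pcca (0.05 ± 0.20, adjusted p = 0.846), B3gnt8, 360 bases from Bckdha (-0.44 ± 1.16, adjusted p = 0.132), and Hsd17b14, 1646 bases from Bcat2 (-0.08 ± 0.95, adjusted p = 0.871), per the authors' deposited table. The last 2 had base means of only 3.97 and 6.67. These neighbours were chosen after their values were seen. RefSeq also places noncoding genes over several members, such as Mccc1os over Mccc1 and Gm26666 over Bcat1, for which no value was used here. The library kit marks strand per the labels, but whether the counting used it was not given in the sources used here, so reads of such overlapping genes may not be told apart.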

How the data were processed

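Only the mRNA table was used. Tools and builds listed in the submitters' processing notes, with no role given, are DESeq, DESeq2, kallisto 0.45.0, mm10 and GRCm38. Base mean, per the file headers, is a signal value: an average normalized count across libraries. The log2 fold changes and their standard errors, on the log2 scale, are the authors' deposited values. P-values and adjusted p-values are also as deposited by the authors. Benjamini-Hochberg adjustment over all 18947 genes gave the deposited adjusted p-values within 2.4e-07. The test behind them was not given in the sources used here. A normal test of fold change divided by SE gave the deposited p, to within 0.01 in log10, for 10.7% of genes. For all 10 members the deposited p was smaller than that of the normal test. Intervals from the SE therefore need not match the deposited p-values printed beside them. The depth of single libraries is unknown. Since the header names no direction, it was read from marker genes. The brown fat genes Ucp1 and Cidea had positive values, the white adipocyte gene Lep and the mesothelial gene Wt1 negative ones. Positive therefore means higher in iBAT.

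Symbols were found for 18758 genes (189 had none), and Mmut was matched through a RefSeq synonym. All 10 members had a base mean of at least 10. Fold changes were converted to linear ratios, with 95% intervals from the SE (normal approximation; Python 3.11.15, scipy 1.17.1). Only the normal test of fold change over SE was tried on simulated data, with noise drawn from the same SEs. That trial does not check the deposited p-values behind the calls. Members and gene lists were chosen with earlier results of these data known, so no list was tested. Named genes are the members, genes of the route's other lists and of its sister enzymes, and 4 coding neighbours added later. Other lists are given as counts. Of the later enzymes, 1 gene is not reported here and stands outside all counts of the route, a choice that did not rest on its value. A planned protein comparison was not made. Alternatives were p from fold change over SE, centring on the median of all genes, a base mean of at least 10, an adjusted p under 0.01 and a log2 fold change of at least 1 in size.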

Additional observations from a re-analysis of the deposited data

How the results depend on the processing

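The calls of the 10 members were the same under every alternative that keeps a threshold on adjusted p alone: 30 of 30 values with p from fold change over SE, with centring on the median of all genes, or with adjustment over genes with a base mean of at least 10 kept their side of the threshold. Bcat2, never called, went from -0.05 to 0.05 with centring. Asking for a log2 fold change of at least 1 left 6 members higher (Ivd and Mccc2 fell out) and 1 lower. Over all genes that rule cut the calls from 3965 to 2093 higher (20.9% to 11%) and from 5135 to 3697 lower (27.1% to 19.5%). The 38 other genes of the route had 26 higher and 6 lower, and between 21 and 26 higher and between 5 and 6 lower under the alternatives. Centring on the median of the citric acid cycle and fatty acid oxidation lists turned the members' median from 1.18 to -1.65, since those 36 genes rose more. No paired analysis was possible because the deposited mRNA values are a comparison with no value per library, and for the same reason no library could be left out. Depth per library is unknown, and the widest intervals belong to Bcat1 and Bckdhb, the members of lowest base mean.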

Other observations

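Genes for breakdown and conversion of other amino acids moved in both directions. Of 22 measured genes for glutamate, proline, lysine, tyrosine, glycine, serine and sulphur amino acids, 5 were called higher in iBAT, 10 lower and 7 not called, with a median log2 fold change of -0.59 per the authors' deposited table. Over the branched-chain enzymes from the dehydrogenase complex onward, members and later steps together, 19 of 20 were called higher and 1 lower, with a median of 1.33 per the authors' deposited table. Over all genes, 20.9% were called higher and 27.1% lower, and 33.8% and 23.8% of those with a base mean of at least 500. Among the other amino acid genes, the share called higher was close to that of all genes and the share called lower was above it. Whether these lists differ was not tested, and the genes of the first list had lower base means (median 369) than those of the second (median 9532).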
